A study of Bos indicus and Bos taurus with 17 samples.

Results

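The 10 genes described here build and break down triglyceride, the main lipid of milk fat: GPAM, AGPAT1, LPIN1, LPIN2, DGAT1 and DGAT2 on the side of synthesis, and PNPLA2, ABHD5, LIPE and MGLL on the side of lipolysis. They were found by name, as 10 of 21631 distinct gene names in the table of values, and took up 12 of its 25121 named entries, because LPIN2 and MGLL had 2 entries each. The genes were chosen for what they do, but with earlier results of these data known. For LPIN2 and MGLL the entry with the higher mean over the groups was counted and the other entry is given beside it. DGAT2 was found only in an entry that joins it with UVRAG, a gene of autophagy that is its neighbour in the RefSeq annotation of another cattle assembly. Reads of DGAT2 and UVRAG cannot be told apart in that entry, which applies to every DGAT2 value below.

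Triglyceride is made at the endoplasmic reticulum by adding fatty acids one after another to glycerol-3-phosphate. A glycerol-3-phosphate acyltransferase and a lysophosphatidate acyltransferase add fatty acids, a lipin removes the phosphate, and a diacylglycerol acyltransferase adds the last fatty acid. In the secretory cells of the mammary gland the product leaves the cell as milk fat globules, whereas in other cells it is kept in lipid droplets and released again by a series of lipases.

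RNA was sequenced from cells of milk that had been captured with beads carrying an antibody to KRT18, a keratin of simple epithelia. The animals were Kashmiri cows, a local breed of North India not improved for milk production, and Jersey cows, a dairy breed, on D15, D90 and D250 in milk (early, mid and late lactation). None of the groups received a treatment. The labels give 17 samples, 3 per breed and day but 2 for Jersey at D90, from cows in lactation number 2 or 3. All 3 samples of Kashmiri cows at D90 and of Jersey cows at D250 were from lactation 2, and the other groups held both numbers. Lactation number was thus uneven between the groups compared, and its part was not tested. The study itself describes cows in lactation 3 and more libraries than the labels give. All samples of a day carry the same month, so the day in milk and the season cannot be told apart. Expression is given in the authors' FPKM, the fragments mapped to a gene per kilobase of its length and per number of mapped reads, as a single value for each breed on each day (6 groups). These values hold no replicates, so that they give no measure of error and allow no test, a single cow could carry a group's value, and the reads behind a value are unknown. FPKM is per length, so that levels of different genes can be set side by side.

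By qPCR at D90, the study reports higher KRT18 and CSN2 and lower LSP1, HBA and CD18 in captured cells than in unpurified milk cells. LSP1, HBA and CD18 served there as markers of other cell types. In the deposited values, the epithelial identity of the cells was checked with 13 listed markers found in the table. Their summed level was 6471, 776 and 2798 FPKM on D15, D90 and D250 in Kashmiri cows, and 2775, 105 and 1479 FPKM in Jersey cows. All 13 were above 1 FPKM in every group, but the capture antigen KRT18 had only 1.59 FPKM in Jersey cows at D90, against 51.3 FPKM in Kashmiri cows at D15. The 10 neutrophil markers found summed to 236, 696 and 717 FPKM in Kashmiri cows and to 5244, 6763 and 14911 FPKM in Jersey cows. Macrophage markers (11 genes) ranged from 137 FPKM (Kashmiri, D15) to 2222 FPKM (Jersey, D90), T and NK cell markers (11 genes) from 108 FPKM (Jersey, D250) to 1757 FPKM (Kashmiri, D90), and B cell markers (6 genes) from 8.71 to 79.7 FPKM. Of the 6 red cell markers, 3 were found and summed to at most 0.670 FPKM. The 9 fat cell markers, among them LIPE itself, summed to 20.9 FPKM (Kashmiri, D15) to 328 FPKM (Jersey, D90). Most of that sum was FABP4, a fatty acid binding protein that macrophages also make, with 17.6 to 317 FPKM, and RBP4 reached 25.2 FPKM in Jersey cows at D15. The defining genes ADIPOQ and LEP reached at most 0.0125 FPKM, with LEP listed at 0 in 5 of the 6 groups. The casein genes CSN1S1 and CSN2, and PAEP, were listed at 0 in every group but Jersey cows at D90. The study itself reports both casein genes among its highest expressed genes in each breed and on each day. These values of 0 therefore cannot be read as absence of the transcripts. In such bulk samples, fewer cells of a type and less RNA per cell cannot be told apart, and the part of other cells in the results below was not tested.

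The first step of the pathway was represented by GPAM, the mitochondrial glycerol-3-phosphate acyltransferase. The study measured GPAM also by qPCR with the primers printed here, which mark the transcript concerned. The qPCR values were not analysed here. No part of them is singled out by capitals.
GPAM forward: ggcttccagataccactgttt
GPAM reverse: tgggtccttttgtttgcttt

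GPAM stood at 86.7, 9.06 and 36.1 FPKM in Kashmiri cows on D15, D90 and D250, and 13.8, 1.06 and 14.1 FPKM in Jersey cows. It was lowest at D90 in both breeds, and lower in Jersey than in Kashmiri cows on each day. The level at D90 was 9.57-fold lower than at D15 in Kashmiri cows and 12.9-fold lower in Jersey cows. From D90 to D250 it was 3.98-fold higher in Kashmiri cows and 13.3-fold higher in Jersey cows, where the level at D250 was close to that at D15. The Jersey value was 6.30-fold lower than the Kashmiri value at D15, 8.52-fold lower at D90 and 2.56-fold lower at D250. At Jersey D90, only 0.881% of the named genes with at least 1 FPKM lay below GPAM, against 90.5% in Kashmiri cows at D15. The epithelial markers also had a median log2 ratio below 0 for D90 over D15, of -2.37 for Kashmiri and -3.74 for Jersey cows. For D250 over D15 in Jersey cows, their median was -1.04 and the ratio of GPAM was 0.03. The markers were split there. KRT8, KRT18, CLDN3, CLDN4 and ELF3 were past the fold described below, and KRT7, KRT19 and EPCAM were also lower at D250. ELF5 (338 and 349 FPKM on D15 and D250), MUC1 (45.0 and 57.8 FPKM), FOLR1, EHF and CDH1 were higher at D250. The part of epithelial cells in the GPAM values was not tested.

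AGPAT1 adds the second fatty acid, on lysophosphatidate. Its level was 169, 40.0 and 68.6 FPKM on D15, D90 and D250 in Kashmiri cows, and 60.9, 57.5 and 131 FPKM in Jersey cows. It was the highest of the 10 genes in each Kashmiri group and in Jersey cows at D90. Kashmiri cows had their highest value at D15 and Jersey cows at D250, so that the Jersey value was 2.78-fold lower at D15 and 1.91-fold higher at D250. The lower level at D90 than at D15 in Kashmiri cows was 4.23-fold, while in Jersey cows the values of these days differed by 1.06-fold.

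The lipins LPIN1 and LPIN2 turn phosphatidate into diacylglycerol. LPIN1 had 51.9, 5.63 and 13.7 FPKM on D15, D90 and D250 in Kashmiri cows, and 3.03, 3.13 and 5.87 FPKM in Jersey cows. The Kashmiri value at D15 stood far above the other 5 values, 9.22-fold above D90 of the same breed and 17.1-fold above Jersey cows at D15. LPIN2 had 12.7, 19.0 and 13.6 FPKM in Kashmiri cows, and 31.0, 36.7 and 108 FPKM in Jersey cows. Jersey cows were higher on every day, by 7.95-fold at D250. The second LPIN2 entry gave 18.2, 16.2 and 13.1 FPKM in Kashmiri cows, and 36.2, 25.1 and 83.0 FPKM in Jersey cows. Both entries placed the Jersey value at D250 highest, but the sign of the ratio of D90 over D15 differed between them in both breeds. The lipins thus stood in opposite order at D15. LPIN2 over LPIN1 was 0.244, 3.38 and 0.988 in Kashmiri cows and 10.2, 11.7 and 18.4 in Jersey cows, with the counted LPIN2 entry.

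DGAT1 and DGAT2 are unrelated enzymes that catalyse the same last step, and DGAT1 is known in cattle for a coding polymorphism with a large effect on milk fat. DGAT1 had 12.7, 14.2 and 7.03 FPKM on D15, D90 and D250 in Kashmiri cows, and 20.2, 17.8 and 24.7 FPKM in Jersey cows. Every Jersey value was above every Kashmiri value, and the gap was 1.59-fold at D15, 1.25-fold at D90 and 3.52-fold at D250. DGAT2 had 17.8, 10.2 and 12.6 FPKM in Kashmiri cows, and 108, 46.1 and 456 FPKM in Jersey cows. The Jersey value was 6.08-fold above the Kashmiri value at D15, 4.53-fold at D90 and 36.3-fold at D250, the widest breed gap among the counted entries of the 10 genes. In Jersey cows, DGAT2 at D250 was 9.89-fold above D90 and 4.22-fold above D15. DGAT2 over DGAT1 was 1.40, 0.718 and 1.79 in Kashmiri cows and 5.35, 2.59 and 18.4 in Jersey cows. The neutrophil markers were higher in Jersey cows on the same days, with a median log2 ratio of 3.58 at D15, 3.57 at D90 and 4.80 at D250 and with 9, 8 and 8 of the 10 past the fold described below. Their part in the DGAT2 values was not tested.

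**Figure D1:**
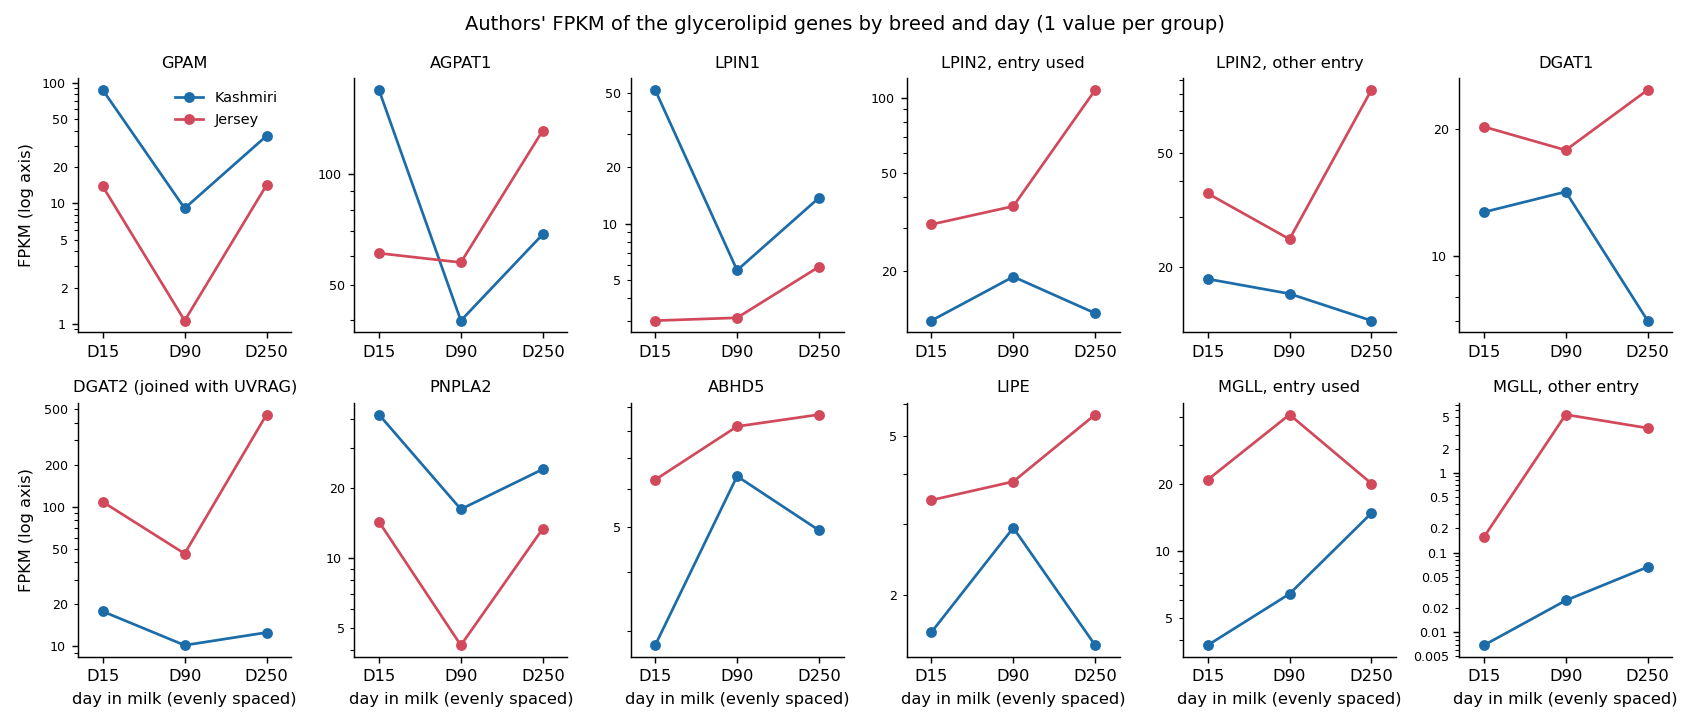
The authors' FPKM (log axis, a scale of its own in each panel) is plotted against the day in milk for the 10 genes, with both entries of LPIN2 and MGLL, and each point is the single value of a breed (Kashmiri blue, Jersey red) on a day. GPAM and PNPLA2 dip at D90 in both breeds with Kashmiri cows higher, whereas DGAT2 in Jersey cows runs from 46.1 FPKM at D90 to 456 FPKM at D250, above all Kashmiri values.

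PNPLA2, also called ATGL, removes the first fatty acid of stored triglyceride. It had 41.7, 16.3 and 24.2 FPKM on D15, D90 and D250 in Kashmiri cows, and 14.4, 4.20 and 13.4 FPKM in Jersey cows. Every Jersey value was below every Kashmiri value, by 2.91-fold at D15, 3.88-fold at D90 and 1.81-fold at D250. Like GPAM, PNPLA2 was lowest at D90 in both breeds, 2.57-fold below D15 in Kashmiri and 3.42-fold below D15 in Jersey cows.

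ABHD5, known as CGI-58, is the protein that activates PNPLA2. Its level was 2.79, 6.40 and 4.91 FPKM in Kashmiri cows, and 6.29, 8.17 and 8.65 FPKM in Jersey cows. It did not follow the enzyme it activates: PNPLA2 over ABHD5 was 14.9 in Kashmiri cows at D15, between 1.55 and 4.93 in 4 groups, and 0.514 in Jersey cows at D90. The level of ABHD5 was 2.25-fold higher in Jersey than in Kashmiri cows at D15, and less far apart on the other days.

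LIPE, the hormone-sensitive lipase, acts mainly on diacylglycerol. It was the lowest of the 10 genes in 4 of the 6 groups, with 1.61, 2.94 and 1.496 FPKM in Kashmiri cows and 3.45, 3.84 and 5.64 FPKM in Jersey cows. Jersey cows were higher on each day, by 3.77-fold at D250.

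MGLL completes the series by splitting monoglyceride into glycerol and a fatty acid. It had 3.77, 6.41 and 14.8 FPKM on D15, D90 and D250 in Kashmiri cows, and 20.9, 40.9 and 20.1 FPKM in Jersey cows. Jersey cows were higher by 5.53-fold at D15 and 6.38-fold at D90, and by 1.36-fold at D250, where the sign turned under both other scalings of the groups (to the summed level of the named genes without milk proteins, which held at most 2.66% of it, and to the upper quartile). Kashmiri cows had their highest value at D250 and Jersey cows at D90. The second MGLL entry was low in Kashmiri cows (0.00690, 0.0251 and 0.0658 FPKM) and in Jersey cows at D15 (0.156 FPKM), but stood at 5.33 and 3.61 FPKM in Jersey cows on D90 and D250. It held 0.183% to 0.740% of the sum of both entries in the first 4 of these groups, and 11.5% and 15.3% in Jersey cows at D90 and D250. By that entry the breed gap at D90 was 212-fold without a pseudocount, from a Kashmiri value close to 0. The study lists MGLL among its genes of largest breed difference at D90. The log2 fold change it gives, 7.729, is that of this second entry. In the deposited values both entries were higher in Jersey cows on each day, but they differed in the Jersey values, where the counted entry at D250 was close to its D15 value and the second entry was far above it.

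The comparisons were then set against all genes. A gene was called past the fold when its log2 ratio, taken after adding a pseudocount of 1 FPKM to each value, came to 2 or more in size (a 4-fold difference) and its level was at least 1 FPKM in either group. All 10 genes reached 1 FPKM in each comparison, and the log2 ratios given from here on hold this pseudocount. The 3 comparisons within a breed share groups with each other and with the comparisons of breeds, so that they are not independent.

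For D90 over D15 in Kashmiri cows, 7.5% of the 11297 genes compared were past the fold (583 lower and 264 higher). Of the 10 genes, 3 were past it, all lower at D90. They were GPAM (-3.12), LPIN1 (-2.996) and AGPAT1 (-2.05), which are enzymes of 3 successive steps of synthesis, and AGPAT1 came to less than 2 under both other scalings of the groups. The 10 genes were split evenly, with 5 ratios above and 5 below 0 and a median log2 ratio of -0.30 beside -0.01 over all genes. Without DGAT2 the median was 0.15, so that it had no settled sign. The ratios above 0 were those of ABHD5 (0.96), MGLL (0.64), LIPE (0.59), LPIN2 (0.55, but -0.16 by its other entry) and DGAT1 (0.15).

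For D250 over D90 in Kashmiri cows, none of the 10 genes was past the fold, beside 1.98% of all 11414 genes. The largest ratios were those of GPAM (1.88), LPIN1 (1.15) and MGLL (1.09), all higher at D250. For D250 over D15, again none was past the fold, beside 4.05% of all 11487 genes. LPIN1 (-1.84), AGPAT1 (-1.29) and GPAM (-1.24) were lower at D250 and MGLL (1.73) was higher. The values of DGAT1, DGAT2, PNPLA2 and LIPE, between -0.77 and -0.07, changed sign when the groups were rescaled to the sum.

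In Jersey cows, D90 over D15 put only GPAM past the fold (-2.84), 1 of 10 genes beside 6.76% of all 11080 genes. PNPLA2 (-1.56) and DGAT2 (-1.21) were also lower, whereas LPIN1 (0.04) and AGPAT1 (-0.08) lay close to 0. For D250 over D90, 4.18% of all 10955 genes were past the fold (407 higher and 51 lower). Of the 10 genes it was 2, DGAT2 (3.28) and GPAM (2.87), both higher at D250. In this comparison 9 of the 10 ratios were above 0, with a median of 0.96 beside 0.15 over all genes, and MGLL (-0.99) was the exception. ABHD5 (0.07) turned below 0 under both other scalings. For D250 over D15, DGAT2 alone was past the fold (2.07), 1 of 10 genes beside 12.6% of all 11320 genes, and it came to 1.92 and 1.96 under the other scalings.

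The breeds were compared on each day. At D15, 4 of the 10 genes were past the fold, beside 8.57% of all 11202 genes: DGAT2 (2.54) and MGLL (2.20, but 0.20 by its other entry) were higher in Jersey cows, and LPIN1 (-3.71) and GPAM (-2.57) were lower. At D90, 3 of 10 genes were past the fold, beside 11.7% of all 11209 genes, with MGLL (2.50, and 2.63 by its other entry) and DGAT2 (2.07) higher and GPAM (-2.29) lower in Jersey cows. At D250, 2 of 10 genes were past the fold, beside 12.3% of all 11642 genes (1272 higher and 159 lower in Jersey cows). Both DGAT2 (5.07) and LPIN2 (2.90, and 2.58 by its other entry) were higher in Jersey cows. DGAT2 was thus past the fold on all 3 days, though it came to 1.95 at D90 when the groups were rescaled by the upper quartile. The medians of the 10 genes were 0.70, 0.31 and 0.82 on D15, D90 and D250, beside -0.13, -0.03 and -0.10 over all genes.

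**Figure D2:**
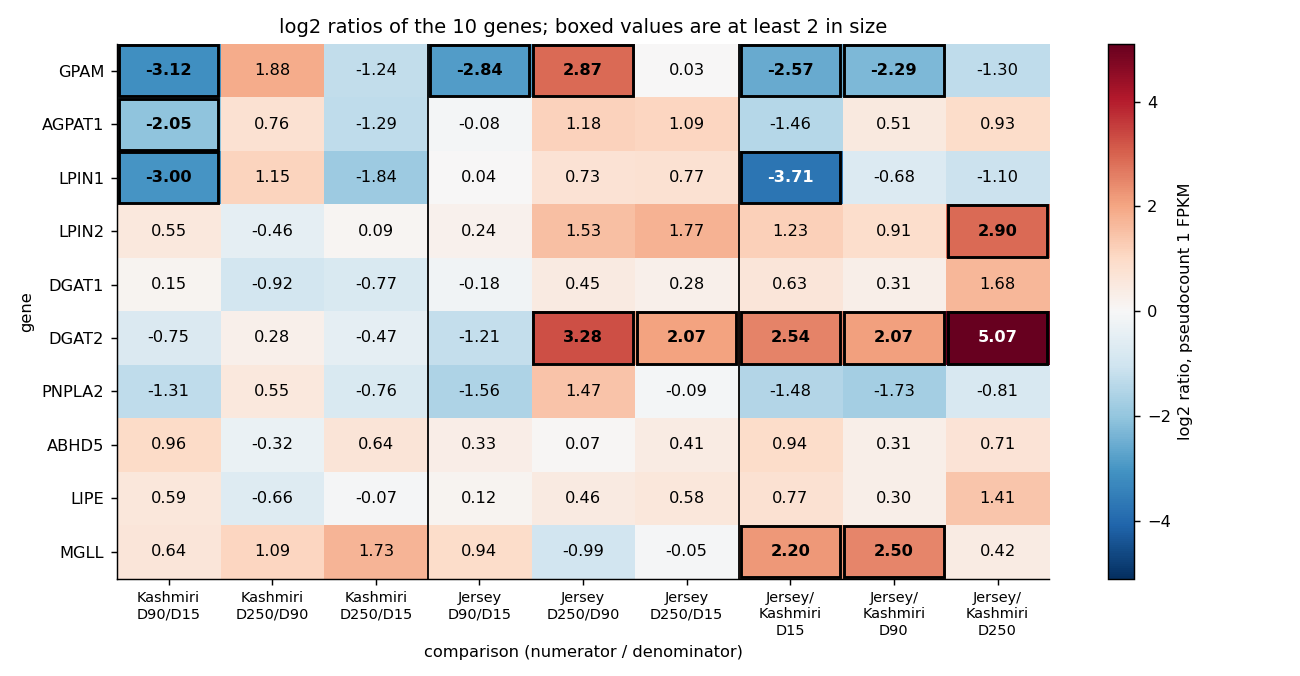
Each cell gives the log2 ratio (pseudocount of 1 FPKM) of a gene (rows) in 1 of the 9 comparisons (columns), red where the first-named group is higher and blue where it is lower, with values of at least 2 in size boxed. The boxes of D90 over D15 are all blue and those of DGAT2 all red, while DGAT1, PNPLA2, ABHD5 and LIPE have no box in any column.

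DGAT1, PNPLA2, ABHD5 and LIPE were past the fold in none of the 9 comparisons, and their largest ratios were 1.68, -1.73, 0.96 and 1.41. With 1 value per group, a ratio below the fold does not show that the groups had the same level.

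Summed over the 6 genes of synthesis, the level was 351, 98.1 and 152 FPKM in Kashmiri cows and 237, 162 and 740 FPKM in Jersey cows on D15, D90 and D250. Only the counted entries of LPIN2 and MGLL enter the sums and shares given here and below. DGAT2 held most of the Jersey value at D250. Without it the sums were 333, 87.9 and 139 FPKM in Kashmiri cows and 129, 116 and 284 FPKM in Jersey cows. The 3 lipases PNPLA2, LIPE and MGLL summed to 47.1, 25.6 and 40.5 FPKM in Kashmiri cows and to 38.7, 49.0 and 39.1 FPKM in Jersey cows, a narrower range than that of synthesis. Their make-up differed more than their sum. PNPLA2 made up 88.6%, 63.5% and 59.8% of the lipase sum in Kashmiri cows, but 37.1%, 8.57% and 34.2% in Jersey cows. MGLL held 8.01%, 25.0% and 36.5% in Kashmiri cows, and 53.9%, 83.6% and 51.3% in Jersey cows. Shares within a group do not depend on how the groups are scaled.

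For the steps of synthesis, the other genes of each family were read from a list of the pathway. Of the glycerol-3-phosphate acyltransferases, GPAT4 was the most abundant in every group, with 319, 73.8 and 93.2 FPKM in Kashmiri cows and 132, 183 and 429 FPKM in Jersey cows. GPAM held 21.3%, 10.7% and 27.3% of the summed level of this step in Kashmiri cows, but 8.66%, 0.485% and 2.15% in Jersey cows. GPAT3 held 0.468%, 2.31% and 2.12% in Kashmiri cows, but 8.28%, 15.9% and 32.5% in Jersey cows. The isoforms GPAM and GPAT3 thus stood in opposite order in the breeds at D90 and D250. GPAM over GPAT3 was 4.61 and 12.9 on these days in Kashmiri cows and 0.0305 and 0.0662 in Jersey cows. AGPAT1 held 58.9% to 88.5% of its step in all groups. LPIN1 held 78.6%, 21.9% and 46.5% of the lipins in Kashmiri cows, and 8.49%, 7.55% and 5.13% in Jersey cows. These shares leave out the other LPIN2 entry, which held 40.6% to 59.0% of the sum of both LPIN2 entries. With it the LPIN1 shares would be lower.

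**Figure D3:**
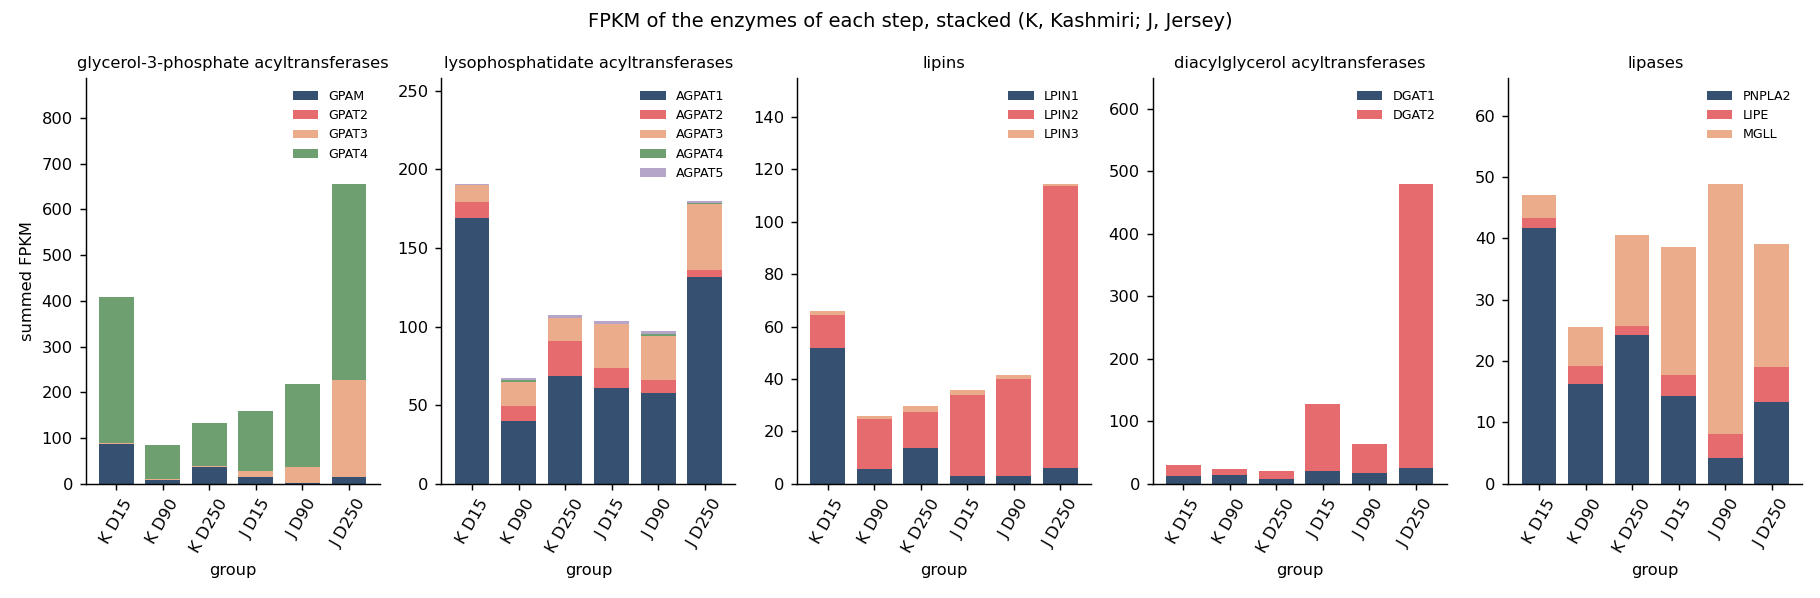
Stacked bars give the summed FPKM (linear axis from 0, 1 scale per panel) of the enzymes of each step in the 6 groups, K for Kashmiri and J for Jersey cows, coloured by gene. LPIN2 and MGLL are shown by their counted entries. GPAT3, LPIN2 and DGAT2 fill a large part of the Jersey bars at D250, and MGLL (light) takes the place of PNPLA2 (dark) in the Jersey lipase bars, most of all at D90.

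The other genes of the pathway came from a list of 29 names, of which 23 were found and 16 or 17 had at least 1 FPKM in a given comparison. Past the fold for D90 over D15 in Kashmiri cows were 5 lower genes of 16: LPL (-2.70), the lipase that takes fatty acids from the blood, G0S2 (-2.86), an inhibitor of PNPLA2, the droplet coats PLIN2 (-2.59) and PLIN3 (-2.30), and GPAT4 (-2.10). Only the lysosomal lipase LIPA was higher (3.16). In this comparison 7.5% of all genes were past the fold. None of 16 was past the fold for D250 over D90 in Kashmiri cows, beside 1.98% of all genes. For D250 over D15 LIPA was higher (3.55) and G0S2 lower (-2.55), of 16 genes and beside 4.05% of all genes. In Jersey cows none of 17 was past the fold for D90 over D15, beside 6.76% of all genes. GPAT3 (2.58) was higher for D250 over D90, 1 of 16 genes beside 4.18% of all genes. GPAT3 (3.92) and G0S2 (2.62) were higher for D250 over D15, 2 of 16 genes beside 12.6% of all genes. In Jersey over Kashmiri cows at D15, GPAT3 (2.28), LIPA (3.16) and G0S2 (2.57) were higher and LPL (-2.75) was lower. They were among 16 genes, beside 8.57% of all genes past the fold. At D90, GPAT3 (3.60) and G0S2 (6.23) were higher, 2 of 16 genes beside 11.7% of all genes. At D250, GPAT3 (5.82), GPAT4 (2.19) and G0S2 (7.74) were higher, 3 of 16 genes beside 12.3% of all genes. Both GPAT4 ratios came to less than 2 under both other scalings, and PLIN3 and the G0S2 ratio of D250 over D15 in Kashmiri cows did so under rescaling to the sum.

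G0S2 had 157, 20.7 and 25.9 FPKM in Kashmiri cows and 938, 1632 and 5758 FPKM in Jersey cows. Set against its target, G0S2 over PNPLA2 was 3.75, 1.27 and 1.07 in Kashmiri cows, and 65.3, 389 and 430 in Jersey cows. The G0S2 level, like the summed neutrophil and the summed macrophage markers, was higher in Jersey than in Kashmiri cows on each day. The part of these cells in it was not tested. LPL had 290, 43.8 and 78.6 FPKM in Kashmiri cows, and 42.2, 43.0 and 35.7 FPKM in Jersey cows. PLIN2, the coat protein of milk fat droplets, had 1360, 225 and 620 FPKM in Kashmiri cows and 659, 535 and 1051 FPKM in Jersey cows. The droplet genes PLIN1, PLIN4 and CIDEC were below 0.2 FPKM in all 6 groups, unlike FABP4 and RBP4 of the same list of fat cell markers.

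**Figure D4:**
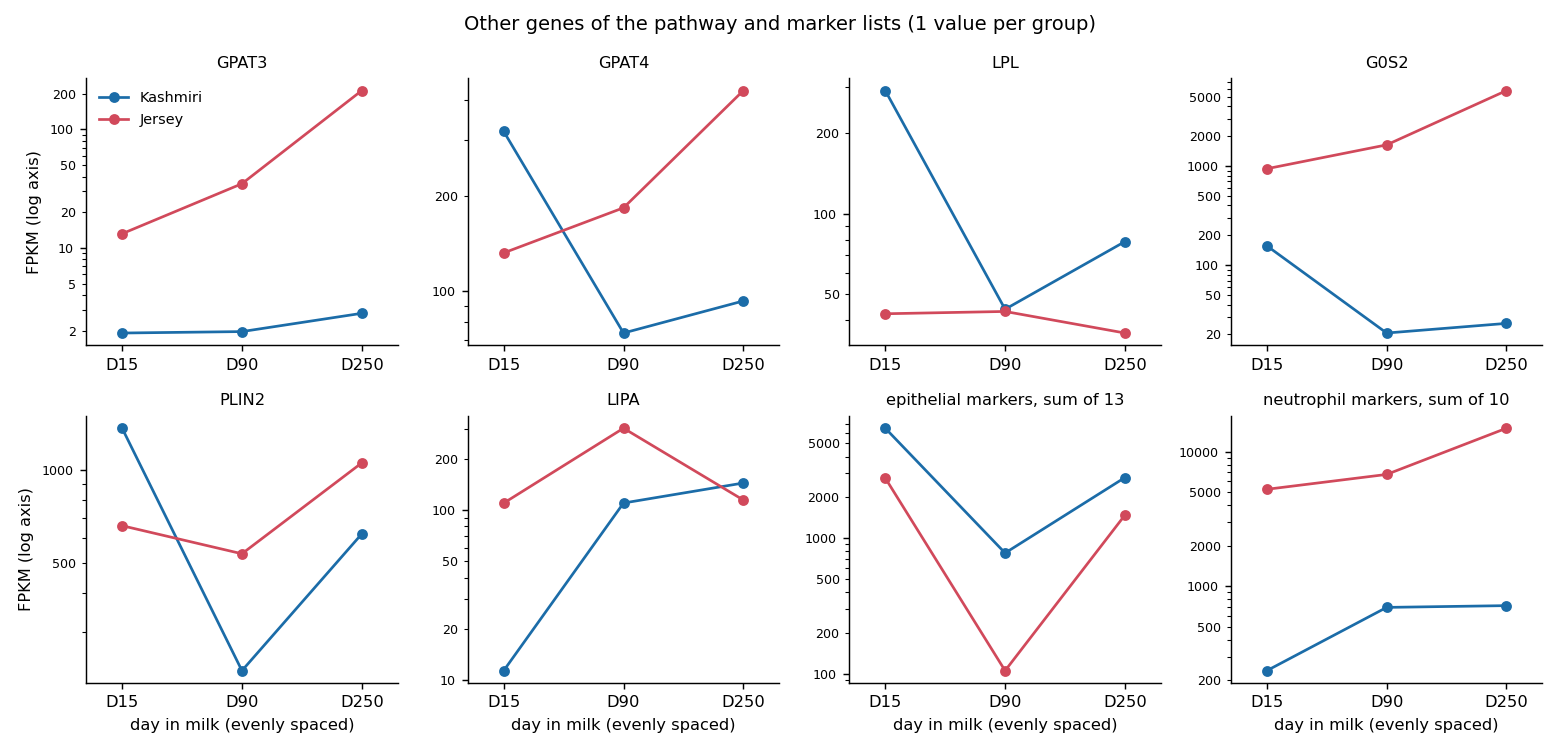
FPKM (log axis, a scale of its own in each panel) by day in milk is shown for 6 other genes of the pathway and for the summed epithelial (13 genes) and neutrophil (10 genes) markers, 1 value per breed and day. GPAT3 and G0S2 lie higher in Jersey cows on each day, as do the neutrophil markers, and the epithelial markers are lowest at D90 in both breeds.

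The likeness of patterns was described with Pearson's r of log2(FPKM + 1) over the 6 groups, which share breeds, days and cell make-up and are few, so that no p-value is given. With the mean of the epithelial markers, r was 0.94 for GPAM, 0.93 for PNPLA2, 0.66 for LPIN1 and 0.44 for AGPAT1, and between -0.76 and -0.20 for the other 6 genes. With the mean of the neutrophil markers, r was 0.91 for LPIN2, 0.90 for LIPE, 0.88 for ABHD5, 0.87 for MGLL, 0.85 for DGAT2 and 0.75 for DGAT1, and between -0.79 and -0.09 for the other 4 genes. By the sign of r, GPAM, AGPAT1, LPIN1 and PNPLA2 were positive for the epithelial markers and the other 6 genes for the neutrophil markers. For AGPAT1 the values were small, 0.44 and -0.09. Each set held genes of synthesis and of lipolysis. The macrophage and other marker lists were not compared in this way, so that the signs do not assign a gene to a cell type.

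Among the 4999 genes that reached 10 FPKM somewhere and had a range of at least 1 (log2), the patterns most like GPAM were those of DLG3, GIPC2 and RAB13, with r rounding to 0.997 or more. For PNPLA2 they were BICDL1, AGR2 and CREB3L1, and for LPIN1 HSD17B7 and RNF170. For DGAT1 they were TNFSF14, PPP4C and ABTB1, for DGAT2 ATXN7L3, ZNF839 and FAM160A2, and for MGLL SEPN1, PKIB and EDNRB. With so few groups high values were common, and 351 genes had an r of at least 0.9 with GPAM, 321 with PNPLA2, 256 with DGAT2, 121 with MGLL, 88 with DGAT1 and 64 with LPIN1.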

How the data were processed

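Milk cells of Kashmiri and Jersey cattle were captured with KRT18 antibody beads and sequenced from stranded mRNA libraries. The authors used Trimmomatic for trimming, Bowtie2 and TopHat for alignment to the UMD3.1 assembly, and Cufflinks and Cuffdiff for assembly and quantification. The values used are the FPKM the authors deposited, 1 per gene and group of breed and day. The columns named "Local" were read as Kashmiri, because the study calls that breed local and the other columns name Jersey. The sum of FPKM over all 61264 entries ranged from 533249 (Kashmiri, D250) to 1023152 (Kashmiri, D15), and the reads behind a value are unknown.

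Each part of a joined name was searched, and of entries with a repeated name the one with the highest mean was kept. Ratios were taken as log2 with a pseudocount of 1 FPKM, over 9 comparisons, for genes with at least 1 FPKM in either group, and folds of single genes without a pseudocount. The text names the 10 genes, the genes of the pathway list past the fold, the 3 genes most like 6 of the members (1 of them is not reported here), and marker genes. The members and lists were chosen with earlier results of these data known. The code was tested on simulated data. The alternatives were a pseudocount of 0.1 FPKM or none, no minimum, a lower fold (log2 of 1), other scalings of the groups (to the sum of the named genes but 6 milk protein genes, of which 5 were found, mostly listed at 0 and holding 0.248% to 2.66% of the sum, or to the upper quartile, 75%), and the other MGLL entry. The other LPIN2 entry, the set without DGAT2, and the same settings for pathway genes were chosen after seeing the data. No coordinates are given, because the reference table is of another assembly. The software was matplotlib 3.10.9, pandas 2.3.3, numpy 2.4.6 and Python 3.11.15.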

Additional observations from a re-analysis of the deposited data

Results flagged for a closer look

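In 3 genes the breeds differed in opposite directions between the same days, by at least 1.5-fold each, and with 1 value per group the difference was not tested. MGLL had a log2 ratio of D250 over D90 of 1.09 in Kashmiri and -0.99 in Jersey cattle, a difference of -2.08 (Jersey minus Kashmiri), which was -3.13 after rescaling to the sum and -2.43 after rescaling by the upper quartile. By the other MGLL entry the ratios were 0.06 and -0.46, below 1.5-fold in both breeds. AGPAT1 had a log2 ratio of D250 over D15 of -1.29 in Kashmiri and 1.09 in Jersey cattle, a difference of 2.38, which was 1.24 and 2.01 under these scalings. LPIN1 had a log2 ratio of D250 over D15 of -1.84 in Kashmiri and 0.77 in Jersey cattle, a difference of 2.62, which was 1.52 and 2.25 under these scalings. The signs within each breed were kept under both scalings in all 3 genes, though AGPAT1 in Kashmiri cattle came to -0.29 after rescaling to the sum.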

How the results depend on the processing

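No paired analysis was possible because the values are 1 per group, and for the same reason no replicate could be left out. The pseudocounts and the minimum of FPKM changed none of the calls of the 10 genes. With an absolute log2 ratio of at least 1, counts of the 10 genes are given with the share of all genes in brackets. The counts were 4 (33.5%) for D90/D15, 3 (17.7%) for D250/D90 and 4 (25.7%) for D250/D15 in Kashmiri cattle. In Jersey cattle they were 3 (29.8%) for D90/D15, 5 (20.9%) for D250/D90 and 3 (42.4%) for D250/D15. For Jersey over Kashmiri they were 7 (28.9%) at D15 and 6 (34.5%) at D250. Rescaling moved the median of all genes by up to 0.85 (log2; D250/D15 in Kashmiri cattle, to the sum), and by -0.64 for the breeds at D250. Rescaled to the sum, 1 gene was past the fold for D250/D90 in Kashmiri cattle (GPAM, 2.55), beside 4.10% of all genes. The median of the 10 genes was 1.07, beside 0.63 over all genes. For D250/D15 in Kashmiri cattle 1 gene was past the fold (MGLL, 2.60), beside 7.61% of all genes. The median of the 10 genes was 0.35 in place of -0.62, and that of all genes 0.81 in place of -0.04. For D250/D15 in Jersey cattle 0 genes were past the fold, beside 12.1%. GPAM reached -2.03 for the breeds at D250, and the median of the 10 genes there was 0.11 in place of 0.82. Over all genes it was -0.74 in place of -0.10. By the upper quartile, 0 genes were past the fold for D250/D15 in Jersey cattle, beside 12.1% of all genes. Rescaling turned the sign of 11 of 90 ratios (sum) and 5 of 90 (upper quartile), none of them past the fold. With the other MGLL entry, 2 genes were past the fold for D90/D15 in Jersey cattle (MGLL, 2.45), and MGLL was past the fold for the breeds at D250 (2.11) but not at D15 (0.20). Without DGAT2 the counts were 1 for D250/D90 and 0 for D250/D15 in Jersey cattle and 1 for the breeds at D250. Of 20 pathway ratios past the fold, 16 remained so after rescaling to the sum and 18 by the upper quartile. Since the depth behind each value is unknown, how far chance alone moves a ratio could not be computed.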
